A study of Homo sapiens with 18 samples.

Results

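The transcriptional response to graphene oxide (GO) was described on 6 of the 18 arrays of the series, the 3 labelled T cells GO and the 3 labelled T cells CTRL, chosen by their sample titles. GO is a sheet of carbon, a single layer or a few layers thick, that carries oxygen groups, and the cells are labelled Jurkat, an established line from a human T-cell leukemia. The GO cells had been exposed to 50 µg/ml for 24 h and the controls were untreated. A further set of 3 arrays held the same line exposed to GONH2, the amino-functionalized GO, which the methods give at the same dose and time. By the labels all groups are of the same line and differ only in the nanomaterial, and each array is labelled as a biological replicate. Fold changes below are differences of log2 intensity between GO and control, in background-corrected and quantile-normalized values, with the standard error (SE) of limma's 2-sided moderated test.

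Contact with and uptake of a particulate material bear on several gene programs. Actin and adhesion genes shape the cell surface, lysosomes receive what is taken up, and stress programs each read out a different kind of damage: unfolded protein in the endoplasmic reticulum (ATF6, XBP1 and ATF4 branches), heat shock in the cytosol, oxidation (NRF2) and free metal (MTF1 and the metallothioneins). Interferon-stimulated genes report on interferon signaling, and the ID genes, inhibitors of differentiation, are classical targets of bone morphogenetic protein (BMP) signaling through SMAD factors. Ribosomal and respiratory chain genes serve here only as a reference.

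The label was checked first, and the controls carried most of the myeloid markers but fewer of the T-cell markers. Of 34 T-cell markers measured, 11 were detected on all 3 control arrays and 18 on none, and 4 were detected on all 3 arrays labelled as THP1 controls, a monocytic line. CD3E and CD3G, components of the T-cell receptor complex, the costimulatory receptor CD28 and the kinase ZAP70 were detected on no control array. Of 37 myeloid markers, 28 were detected on all 3 controls and 6 on none, and 29 were detected on all 3 THP1 controls. ELANE, the neutrophil elastase gene, was bright on the controls, at a mean log2 intensity of 13.63 ± 0.04 (SD, n = 3). Means on these controls and on the THP1 controls were 10.06 and 10.17 for SPI1, 12.32 and 12.48 for CEBPA and 9.22 and 9.73 for CSF3R. They were further apart for LYZ (8.97 and 11.82), MPO (5.30 and 6.39) and CD14 (6.05 and 6.73). CD3D, of the same complex as CD3E, was detected on all 3 controls, at 7.81, 7.63 and 8.15, and so was CD247, the zeta chain, while both were detected on 0 THP1 controls. CD4 was detected on all 3 controls and 1 THP1 control. Most of the lineage markers did not bear out the label, and the arrays are therefore called the arrays labelled Jurkat. In quantile-normalized values, the summed linear level of the myeloid markers was 79400 to 83130 on the controls and 101700 to 108200 on the GO arrays. That of the T-cell markers was 3853 to 4167 and 4003 to 4372. Bright genes such as ELANE (mean 14.35 after GO) weigh most in such a sum. By the test below, 9 of 32 myeloid markers were higher and 9 lower after GO. With each array scaled to the median of all its probes, 1 was higher and 10 lower. The part of these marker differences in the results below was not tested. Because RNA came from whole cultures, fewer cells of a kind and less RNA per cell cannot be told apart.

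Of 19455 transcripts tested, 4890 were called, which is 25.1% (p under 0.001 and a Benjamini-Hochberg adjusted p under 0.05), with 2497 higher after GO (12.8%) and 2393 lower (12.3%). At the level of genes, each read by its brightest probe, 3014 of 11130 were called (27.1%), of which 1774 rose (15.9%) and 1240 fell (11.1%). Control and GO values did not overlap for 60.7% of the genes (36.9% higher, 23.8% lower) and for 56.6% of the transcripts (31.2% higher, 25.4% lower). Arrays of a group correlated at 0.9928 to 0.9936 (control) and 0.9885 to 0.9912 (GO), and a control with a GO array at 0.9441 to 0.9584. The unnormalized GO arrays were dimmer, with mean signals of 318 to 452.6 against 526 to 588 on the controls. The balance of rises and falls depended on how this was scaled. When each array was scaled to the median of all its probes instead of by quantiles, the median log2 change of all tested transcripts moved from 0.06 to -0.13, and 585 transcripts were called higher and 3129 lower, so that rises made up 15.8% of the calls in place of 51.1%. Scaled to the median of the probes detected on all 6 arrays, the median change was 0.11 and 47.1% of the calls were rises, and with cyclic loess 41.8%. The counts for each group of genes are therefore given in both scales below, with the second pair (called "median scaling") from the all-probe median, beside which 374 of all 11130 genes rose and 1612 fell. The median change of a gene was 0.11 in the first scale and -0.11 in the second. In the first scale a list's counts stand beside 15.9% of all genes rising and 11.1% falling. Members and lists were chosen with earlier results of these data known, so their shares are only a description. In the reference lists 43 of 68 cytosolic ribosomal, 42 of 76 mitochondrial ribosomal and 42 of 73 respiratory chain genes fell.

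**Figure D1:**
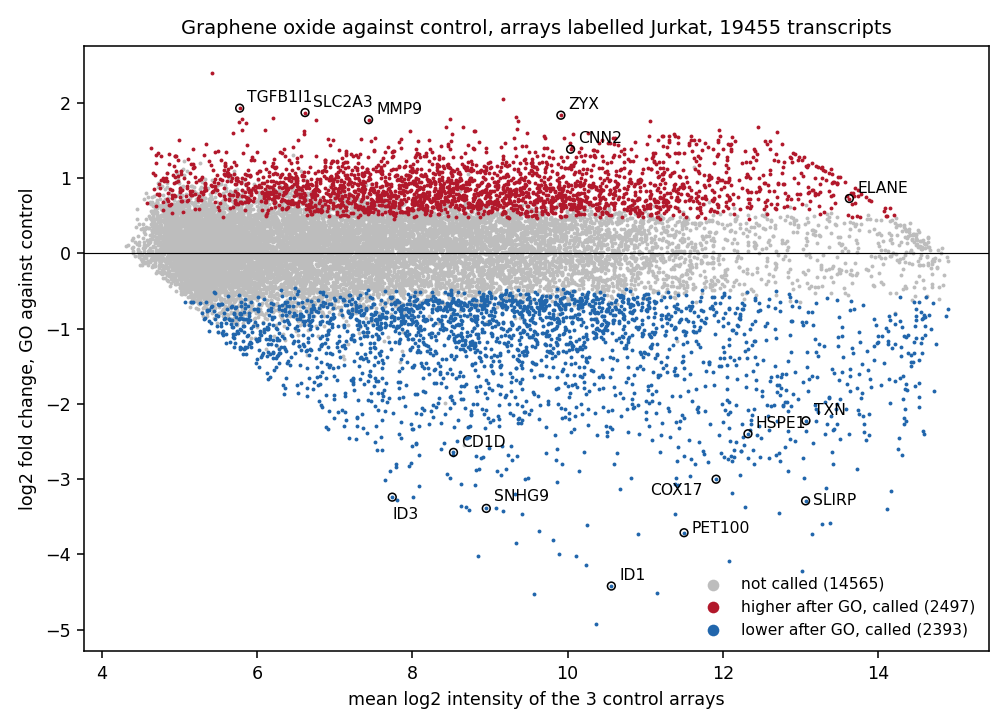
Each point is 1 of 19455 transcripts, with the mean log2 intensity of the 3 control arrays on the x axis and the log2 fold change of GO against control on the y axis. Called rises (2497, red) reached 2.39, whereas called falls (2393, blue) reached -4.92, and circles mark genes named in the text.

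The falls were larger than the rises. Of the transcripts, 2016 (10.4%) were called with at least a 2-fold change, 1296 lower (6.66%) and 720 higher (3.7%), and the extremes over all transcripts were -4.92 and 2.39. Of the 11130 genes the deepest fall was that of ID1, which encodes an inhibitor of basic helix-loop-helix factors. Its log2 intensity was 10.62, 10.58 and 10.49 on the control arrays and 6.32, 5.94 and 6.17 on the GO arrays. The groups lay far apart, with a fold change of -4.42 ± 0.12 (adjusted p = 5.83e-06). ID3, of the same family, had 7.71, 7.64 and 7.87 on the controls and was not detected on any GO array, where its signal was 4.56, 4.29 and 4.65. It was at least 5.32-fold lower (adjusted p = 7.69e-06). ID2 went the same way with a smaller step, from 9.91, 10.14 and 10.13 to 9.18, 8.97 and 9.23, without overlap (-0.93 ± 0.12). All 3 falls held under both median scalings, and none was lost when any array was left out. With the authors' own normalized values fold changes were smaller, and the step of ID1 was -3.26.

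Of the 31 tested members of the BMP and TGF-beta list 9 rose and 4 fell (median 0.27), and under median scaling 2 rose and 4 fell (median 0.11). Besides the 3 ID genes the fall was that of BAMBI, a decoy receptor of the family, whose call was lost when scaled to the detected probes and in 5 of the 6 single-array omissions. TGFB1I1, which encodes the focal adhesion adaptor Hic-5, had the largest rise of the 11130 genes. It stood at 5.96, 5.63 and 5.75 on the controls and at 7.82, 7.69 and 7.61 after GO. The groups were separated by more than the spread within either, and the change was 1.93 ± 0.12 (adjusted p = 2.13e-05). SMAD5, a transducer of BMP signals, rose by 0.76 ± 0.10, a call that was lost under median scaling. SMAD4, the shared SMAD partner, was not called (0.38 ± 0.12). In the Wnt and Notch list 5 of 33 rose and 2 fell (median 0.20, and -0.05 with 1 rising and 2 falling under median scaling). The receptor NOTCH1 rose from a mean of 7.75 to 9.11 (1.36 ± 0.12, adjusted p = 8.84e-05) under each scaling.

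Many genes of the actin cytoskeleton and of focal adhesions rose, though fewer under median scaling. Of 80 tested, 39 rose (48.8%, against 15.9% of all genes) and 4 fell, with a median of 0.59. Under median scaling 7 rose and 5 fell, with a median of 0.09, whereas 22 rose when scaled to the detected probes and 33 with cyclic loess. ZYX, the gene of the focal adhesion protein zyxin, stood at 9.96, 9.92 and 9.86 on the controls and at 11.91, 11.70 and 11.63 on the GO arrays. No value overlapped (1.84 ± 0.11, adjusted p = 1.82e-05). MYL9, a regulatory light chain of nonmuscle and smooth muscle myosin, went from 6.32, 6.09 and 6.23 to 8.06, 7.98 and 7.99 (1.80 ± 0.10). The membrane-bound myosin MYO1G went from 8.83, 8.89 and 8.70 to 10.54, 10.44 and 10.33 (1.63 ± 0.11). The actin-binding CNN2 (1.38 ± 0.10) also rose, and these 4 calls held under both median scalings. ACTG1, the brightest uncalled member, was near the top of the scale in both groups (14.64 and 14.86). The 4 members that fell were small actin and myosin partners: MYL12B (-1.17 ± 0.10), the Arp2/3 subunit ARPC3 (-1.16 ± 0.10), MYL6 (-0.75 ± 0.09) and TMSB10 (-0.70 ± 0.10, a call lost without control array 1).

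Adhesion receptors and proteases of the cell surface were split by gene. In the integrin and leukocyte adhesion list 8 of 26 rose and 4 fell (median 0.40), and 1 rose and 4 fell under median scaling (median 0.19). ITGA5, a fibronectin receptor chain, rose from 8.77, 8.70 and 8.86 to 10.24, 10.24 and 10.03 (1.39 ± 0.11). ITGAE, the integrin chain that binds E-cadherin, fell by 1.62 ± 0.17 and CD58, the ligand of CD2, by 1.31 ± 0.12. The leukocyte integrin chains ITGB2 (0.92 ± 0.09) and ITGAL (0.87 ± 0.09) were called higher but not under median scaling. Matrix proteases and their inhibitors had the highest share of rises of the lists, 11 of 18 with 1 fall (median 0.72), and 4 and 1 under median scaling (median 0.26). MMP9, gelatinase B, went from 7.33, 7.45 and 7.53 to 9.46, 9.24 and 8.94, without overlap (1.78 ± 0.15, adjusted p = 7.07e-05). Its inhibitors rose with it, TIMP3 by 1.30 ± 0.11 and TIMP2 by 1.06 ± 0.09, and so did the membrane protease ADAM15 (1.29 ± 0.11). All 4 held under both median scalings. CTSG, the azurophil granule protease cathepsin G, was not called (0.39 ± 0.10).

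Uptake and degradation genes moved in both directions. In the particle uptake and endocytosis list 7 of 33 rose and 2 fell (median 0.27, and -0.02 with 2 and 2 under median scaling). The 2 that fell were Fc receptor genes, FCER1G (-1.37 ± 0.15) and FCGR1A (-0.74 ± 0.10), whereas the clathrin adaptor AP2B1 rose by 1.14 ± 0.12. Of 52 lysosomal genes 15 rose and 8 fell (median 0.36), and under median scaling 2 rose and 10 fell (median -0.01). Of the proton pump, the large membrane subunit ATP6V0A1 rose by 1.48 ± 0.10. Its small subunits ATP6V1G1 (-1.11 ± 0.12), ATP6V1D (-0.82 ± 0.12), ATP6V1F (-0.79 ± 0.09), ATP6V0E1 (-0.79 ± 0.10) and ATP6V1E1 (-0.74 ± 0.10) fell. The protease CTSB, cathepsin B, went from 10.26, 10.19 and 10.07 to 11.57, 11.63 and 11.55 (1.41 ± 0.10), and the cholesterol carrier NPC2 fell by 0.86 ± 0.12. Of 36 autophagy genes 6 rose and 2 fell (median 0.16, and -0.05 with 0 and 4 under median scaling).

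In the list of mTORC1, its lysosomal anchor and AMPK, 7 of 38 rose and 5 fell (median 0.19, and -0.08 with 1 and 7 under median scaling). Of the 5 that fell, 4 were Ragulator subunits, the small proteins that anchor mTORC1 to the lysosome. LAMTOR5 fell from 12.80, 12.63 and 12.66 to 10.89, 10.85 and 11.09, without overlap (-1.75 ± 0.11, adjusted p = 2.13e-05). LAMTOR3 (-1.46 ± 0.12) and LAMTOR4 (-0.83 ± 0.12) followed, and LAMTOR2 (-0.73 ± 0.11) lost its call in 5 of the 6 single-array omissions. NPRL3, a subunit of the GATOR1 inhibitor of mTORC1, rose by 1.42 ± 0.10.

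**Figure D2:**
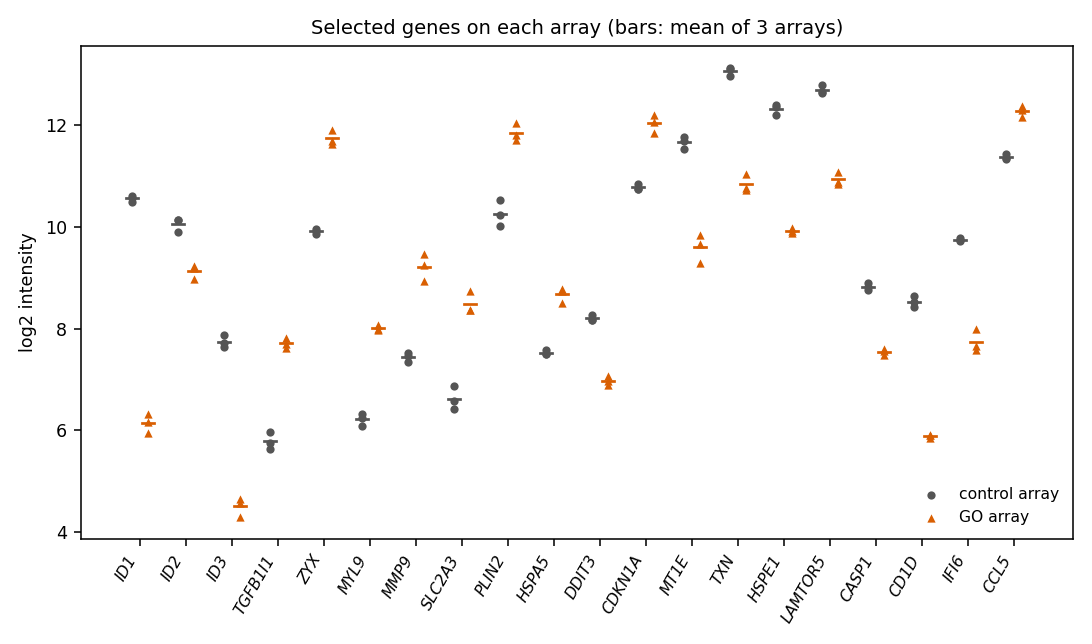
Log2 intensity of 20 genes on each of the 3 control arrays (grey circles) and the 3 GO arrays (orange triangles), with a bar at each group's mean of 3 arrays. For each gene the 2 sets of points do not overlap, as for ID1 (10.49 to 10.62 against 5.94 to 6.32) and ZYX (9.86 to 9.96 against 11.63 to 11.91).

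Both glucose transporter genes below and several lipid genes rose. Of 32 glycolysis genes 14 rose and 1 fell (median 0.59), and 2 rose and 1 fell under median scaling (median 0.08). SLC2A3, the high-affinity glucose transporter GLUT3, went from 6.41, 6.58 and 6.87 to 8.74, 8.36 and 8.37 (1.87 ± 0.16, adjusted p = 8.05e-05). SLC2A1, which encodes GLUT1, went from 10.65, 10.62 and 10.66 to 12.11, 12.05 and 12.08 (1.44 ± 0.09). Both transporters kept their call under each scaling, and neither group overlapped the other. The glycolytic enzymes GPI (1.08 ± 0.10) and TKT of the pentose phosphate pathway (1.29 ± 0.11) rose only without median scaling, and the enolase ENO1 was not called (0.30 ± 0.09). In the hypoxia list 12 of 32 rose and 1 fell (median 0.59), and 4 and 1 under median scaling (median 0.26). PLIN2, which coats lipid droplets, went from 10.02, 10.23 and 10.52 to 12.05, 11.71 and 11.81 (1.60 ± 0.16), and NDRG1 rose by 1.56 ± 0.15. BNIP3, another hypoxia target, had means of 12.85 and 12.76 and was not called, and ANKRD37 fell by 0.92 ± 0.13. SLC2A1 and SLC2A3 belong to both lists. The core of the hypoxia response element, ACGTG on either strand, was in 18.7% of 27305 promoters and in 24.1% of those of tested genes. It was in 14 of the 25 promoters of this list, and of those 14 genes 4 rose, 1 fell and 9 were not called. Of the 11 without it 6 rose and 5 were not called.

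Of 35 genes of cholesterol and fatty acid synthesis 15 rose and 0 fell (median 0.48), and 2 rose and 0 fell under median scaling (median 0.15). SCAP, the escort of the SREBP factors, went from 10.52, 10.51 and 10.51 to 11.92, 12.10 and 11.93 (1.47 ± 0.10), and CYP51A1, a demethylase of sterol synthesis, rose by 1.32 ± 0.15. HMGCS1 (1.00 ± 0.10), DHCR7 (1.06 ± 0.12) and ACLY (1.02 ± 0.11) were called higher but lost the call under median scaling.

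The stress programs did not move as a block. For the unfolded protein response, the promoters of HSPA5, the master chaperone of the endoplasmic reticulum, and of CANX, calnexin, are shown because both genes were called higher and both hold the endoplasmic reticulum stress element, searched on both strands as CCAAT and CCACG with 9 bases of any kind between. It was found in 0.0806% of 27305 promoters (the 250 bases before the start, RefSeq, GRCh38.p14) and in 0.156% of those of tested genes. The stretches lie at chr9:125241344-125241493 (HSPA5, minus strand) and chr5:179698768-179698928 (CANX, plus strand), and capitals mark the element.
HSPA5: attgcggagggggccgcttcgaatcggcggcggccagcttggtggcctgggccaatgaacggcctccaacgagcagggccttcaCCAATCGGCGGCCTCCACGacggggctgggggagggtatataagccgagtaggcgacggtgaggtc
CANX: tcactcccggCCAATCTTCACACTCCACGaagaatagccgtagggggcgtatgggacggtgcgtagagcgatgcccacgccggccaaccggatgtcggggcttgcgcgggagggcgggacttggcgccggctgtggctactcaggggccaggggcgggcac
The element was in 6 of the 39 list promoters given, and the others, HSP90B1, CALR, XBP1 and CRELD2, were not called. Of the 33 without it 10 rose, 1 fell and 22 were not called. HSPA5 went from 7.58, 7.50 and 7.51 to 8.78, 8.51 and 8.73, without overlap (1.15 ± 0.11, adjusted p = 0.000126), and kept its call under each scaling. CANX (0.64 ± 0.11) lost its call under both median scalings and in 5 of the 6 single-array omissions. Of all 43 genes of this list 13 rose and 1 fell (median 0.24, and -0.07 with 1 and 2 under median scaling). The amino acid transporters SLC1A5 (1.00 ± 0.10) and SLC7A5 (0.93 ± 0.11) and the ATF4 target TRIB3 (0.89 ± 0.09) were called higher, but not under median scaling. The single fall was that of DDIT3, which encodes the death-associated factor CHOP, from 8.18, 8.26 and 8.17 to 7.06, 6.88 and 6.96 (-1.24 ± 0.10, adjusted p = 5.67e-05). ATF4 itself was not called (0.24 ± 0.10).

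Among 47 heat shock proteins and chaperonins 10 rose and 4 fell (median 0.25, and -0.16 with 2 and 6 under median scaling). HSPE1, the mitochondrial co-chaperonin, fell from 12.36, 12.40 and 12.21 to 9.92, 9.88 and 9.98 (-2.40 ± 0.10, adjusted p = 7.89e-06). The other 3 falls were prefoldin subunits, PFDN5 (-2.30 ± 0.13), PFDN6 (-1.64 ± 0.12) and PFDN1 (-1.14 ± 0.10), which pass nascent actin and tubulin to the chaperonin. HSPA4 rose by 1.15 ± 0.11, and the highly expressed HSP90AA1 was not called (0.40 ± 0.11). HSPD1, the partner of HSPE1, was read by probes that were called in opposite directions (0.50 and -0.74) and is left uncertain.

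More antioxidant genes fell than rose. Of 36 NRF2 and oxidative stress genes 3 rose and 9 fell (median -0.17), and 0 rose and 15 fell under median scaling (median -0.49). TXN, thioredoxin, went from 13.12, 13.11 and 12.97 to 10.73, 10.76 and 11.04, without overlap (-2.22 ± 0.12, adjusted p = 1.28e-05). The microsomal glutathione transferases MGST3 (-1.76 ± 0.11) and MGST2 (-1.53 ± 0.10), GPX7 (-1.30 ± 0.14), the mitochondrial superoxide dismutase SOD2 (-1.27 ± 0.12) and GSTK1 (-1.14 ± 0.12) fell as well. The core of the antioxidant response element was searched as TGAC and GC with 3 bases of any kind between. It was in 11% of 27305 promoters, in 12.3% of those of tested genes and in 8 of the 30 of the list. Of those 8 genes 2 rose, 1 fell and 5 were not called, and of the 22 without it 1 rose, 6 fell and 15 were not called. The 2 that rose were ME1 and GSTM1. GSTM1, which counts among the 3 rises of the list, was read by probes called in opposite directions (0.63 and -0.58) and is left uncertain. FTL, the ferritin light chain, had means of 14.80 and 14.81 (0.01 ± 0.10). In the list of iron and heme genes 5 of 32 rose and 6 fell (median -0.05, and -0.30 with 0 and 7 under median scaling). BOLA3, an assembly factor of mitochondrial iron-sulfur clusters, fell from 12.17, 12.05 and 11.96 to 9.37, 9.22 and 9.38 (-2.74 ± 0.10), and its relatives BOLA2 (-2.70 ± 0.11) and BOLA1 (-1.13 ± 0.11), the scaffold ISCU (-1.16 ± 0.10) and CISD1 (-1.17 ± 0.09) fell too.

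The metallothioneins, small zinc- and copper-binding proteins whose genes lie together on chromosome 16 and are switched on by MTF1, held 4 falls. Promoter stretches of MT1H and MT1X are shown because both genes fell and hold TGCGCNC on either strand. This is a form of the core of the metal response element. It was found in 16.9% of the 27305 promoters, in 26.4% of those of tested genes and in 29.4% of those of the list. The form TGCACNC was not searched, and it also occurs in both stretches, in lower case. The stretches lie at chr16:56669644-56669813 and chr16:56682310-56682469 on the plus strand of GRCh38.p14 (RefSeq), with TGCGCNC in capitals.
MT1H: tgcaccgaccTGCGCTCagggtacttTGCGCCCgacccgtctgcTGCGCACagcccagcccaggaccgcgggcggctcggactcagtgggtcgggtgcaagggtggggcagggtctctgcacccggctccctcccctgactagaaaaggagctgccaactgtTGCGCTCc
MT1X: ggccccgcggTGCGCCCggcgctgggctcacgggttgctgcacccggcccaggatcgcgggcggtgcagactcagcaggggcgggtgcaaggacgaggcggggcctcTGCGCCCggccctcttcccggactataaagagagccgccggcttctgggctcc
In the list of metallothioneins and zinc transport 1 of 22 rose and 4 fell (median -0.04, and -0.26 with 0 and 4 under median scaling), and all 4 falls were metallothioneins. The rise was MTF1 itself (0.57 ± 0.10), a call lost under median scaling, under cyclic loess and in 5 of the 6 single-array omissions. MT1E went from 11.69, 11.78 and 11.54 to 9.67, 9.29 and 9.84 (-2.07 ± 0.16, adjusted p = 4.78e-05). MT1X went from 10.11, 10.02 and 10.00 to 8.39, 8.44 and 8.91 (-1.46 ± 0.15). MT1F fell by 1.49 ± 0.12, and MT1H, which was detected on 1 of the 3 GO arrays, had a fold change of -2.44 ± 0.12. No group overlapped for these genes. Their transcripts are near copies of each other, so that the probes may read more than a single gene. Of the 6 metallothioneins tested, MT2A, whose promoter holds 2 matches, was not called (0.07 ± 0.11), and MT1G was detected on no array of either group. Of the 5 list promoters with TGCGCNC, 2 belonged to genes that fell and 3 to genes that were not called, MT2A and the zinc transporters SLC39A6 and SLC39A3. Of the 12 without it 1 rose and 11 were not called.

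Of the interferon-stimulated genes whose promoters hold the interferon-stimulated response element, 8 fell, 0 rose and 11 were not called. The element, searched on both strands as TTTC, 2 bases of any kind and TTTC, was in 3.07% of the 27305 promoters and in 2.34% of the 8970 tested genes with a promoter, but in 19 of the 41 listed genes with a promoter (46.3%). The stretches below are from 4 that fell, at chr1:27672193-27672358 (IFI6, minus strand), chr11:313890-314039 (IFITM1, plus), chr14:94110586-94110735 (IFI27, plus) and chr13:42992242-42992391 (EPSTI1, minus) of GRCh38.p14 (RefSeq), and capitals mark the matches.
IFI6: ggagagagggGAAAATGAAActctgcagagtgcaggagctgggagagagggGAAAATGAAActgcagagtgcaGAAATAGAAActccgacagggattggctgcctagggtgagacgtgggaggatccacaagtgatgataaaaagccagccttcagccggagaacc
IFITM1: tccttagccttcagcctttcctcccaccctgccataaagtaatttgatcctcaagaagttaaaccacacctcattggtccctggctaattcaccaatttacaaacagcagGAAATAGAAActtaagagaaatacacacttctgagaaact
IFI27: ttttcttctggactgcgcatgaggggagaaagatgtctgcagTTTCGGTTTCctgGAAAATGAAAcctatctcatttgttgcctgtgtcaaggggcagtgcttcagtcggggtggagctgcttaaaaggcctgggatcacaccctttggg
EPSTI1: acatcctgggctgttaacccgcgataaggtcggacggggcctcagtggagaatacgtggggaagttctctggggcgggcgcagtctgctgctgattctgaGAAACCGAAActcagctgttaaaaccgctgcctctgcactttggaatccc
Of the 19 genes with the element 0 rose, 8 fell and 11 were not called, with changes of the 11 from -0.14 to 0.45. Of the 22 without it 3 rose, 2 fell and 17 were not called. The 8 were IFI6, IFITM1, IFI27, EPSTI1, ISG15, IFIT1, IFI44 and BST2, of which IFI27, IFIT1, IFI44 and BST2 are named after their values were seen. A match of letters is not a site of binding.

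IFI6, a mitochondrial protein induced by interferon, stood at 9.72, 9.75 and 9.78 on the controls and at 7.59, 7.98 and 7.66 on the GO arrays. The groups did not overlap (-2.01 ± 0.12, adjusted p = 2.13e-05). IFITM1, a membrane protein that blocks viral entry, fell from 7.90, 7.76 and 7.98 to 6.11, 6.61 and 6.88 (-1.35 ± 0.19). The ubiquitin-like ISG15 fell from 8.50, 8.19 and 8.39 to 7.50, 7.18 and 7.38 (SE 0.13, adjusted p = 0.000509), and the interferon regulatory factor gene IRF9 by 0.95 ± 0.11. EPSTI1 and IFI27 were detected on no GO array and were at least 1.72-fold and 1.20-fold lower, the latter not called when scaled to the detected probes. IFIT1 (-0.92 ± 0.10) was detected on 1 of the 3 GO arrays, and the call of IFI44 was lost in 5 of the 6 single-array omissions. Of all 53 genes of the list 6 rose and 10 fell (median -0.01, and -0.29 with 0 and 11 under median scaling). The rises included IRF7 (0.93 ± 0.11), a factor of the type I interferon response, and the RNA editor ADAR (0.79 ± 0.09), both lost under median scaling. IRF1 (0.63 ± 0.10) was called higher, but neither under median scaling nor in 4 of the 6 single-array omissions, and IRF8, a myeloid factor, was not called (0.17 ± 0.09).

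Immune effector genes changed in both directions. CD1D, which presents lipids to natural killer T cells, had the deepest fall of the antigen presentation list, from 8.52, 8.43 and 8.64 to 5.84, 5.90 and 5.91 (-2.64 ± 0.10, adjusted p = 7.58e-06). In that list 4 of 29 rose and 1 fell (median 0.11, and -0.23 with 0 and 6 under median scaling). TAPBP (1.12 ± 0.10) and TAP1 (0.91 ± 0.09), of the peptide-loading complex, rose except under median scaling. HLA-DRA is left uncertain, as its probes were called in opposite directions (0.80 and -0.95). Of 50 chemokines, cytokines and receptors 14 rose and 4 fell (median 0.30, and 0.07 with 5 and 8 under median scaling). The receptor chain CSF2RA (1.42 ± 0.11), the cytokine TNFSF14 (1.35 ± 0.10) and the receptor TNFRSF1B (1.08 ± 0.14) rose under each scaling. CCL23 fell by 0.97 ± 0.12 and was detected on 2 of 3 GO arrays. CCL5, a chemokine for T cells and monocytes, rose from 11.33, 11.44 and 11.35 to 12.17, 12.31 and 12.38 (0.91 ± 0.10), except under median scaling. TNF (-0.05 ± 0.12) and IL1B (0.26 ± 0.26) were not called.

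In the list of NF-kB, Toll-like receptors and the inflammasome 11 of 45 rose and 1 fell (median 0.33, and 0.13 with 3 and 1 under median scaling). The fall was that of CASP1, the protease that matures IL-1, from 8.91, 8.76 and 8.82 to 7.56, 7.49 and 7.60 (-1.28 ± 0.09, adjusted p = 4.55e-05). CASP4, the sensor of cytosolic lipopolysaccharide, fell by 1.09 ± 0.09. P2RX7, the ATP receptor upstream of the inflammasome, went the other way, from 8.66, 8.35 and 8.49 to 9.63, 9.62 and 9.48 (1.08 ± 0.11), and the Toll adaptor TICAM1 rose by 1.23 ± 0.15. The inflammasome adaptor PYCARD was not called (-0.09 ± 0.14). In the immediate early list 4 of 45 rose and 1 fell (median 0.20, and 0.05 with 0 and 2 under median scaling). The phosphatase gene DUSP1 fell by 0.88 ± 0.10. Of 42 genes of protein kinase C, calcium and phosphoinositide signaling 12 rose and 0 fell (median 0.37, and 0.13 with 1 and 0 under median scaling), led by the kinase PRKD2 (1.24 ± 0.09).

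Death and growth-arrest lists held few calls. Of 38 BCL2 family and caspase genes 4 rose and 2 fell (median 0.08, and -0.14 with 0 and 4 under median scaling), and the 2 that fell were CASP1 and CASP4. MCL1, a short-lived survival factor, was called higher (0.77 ± 0.10), but under neither median scaling, and BCL2 was not called (0.42 ± 0.12). Of 40 p53 targets and growth-arrest genes 5 rose and 1 fell (median 0.17, and -0.10 with 2 and 2 under median scaling). CCND3, cyclin D3, is in the list but itself promotes cell cycle entry. It went from 11.34, 11.25 and 11.25 to 12.65, 12.74 and 12.69 (1.42 ± 0.09), and MXD4, an antagonist of MYC, rose by 1.10 ± 0.11. The cell cycle inhibitor CDKN1A went from 10.75, 10.84 and 10.75 to 12.06, 12.20 and 11.86 (1.26 ± 0.11), without overlap, but its call was lost under median scaling. GADD45B fell by 1.06 ± 0.13. Of 22 polyamine genes 2 rose and 1 fell (median 0.26, and -0.21 with 1 and 1 under median scaling), with the spermidine synthase SRM higher by 1.21 ± 0.12.

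Cell cycle genes were called in both directions, replication genes at shares near those of all genes, and no chromatin modifier was called lower. Of the replication genes 13.8% rose and 13.8% fell, and of the mitosis genes 13.6% and 18.6%. Over all genes the shares were 15.9% and 11.1%. In DNA replication 9 of 65 rose and 9 fell (median 0.20, and -0.20 with 3 and 11 under median scaling). RPA3, the small subunit of the single-strand binding protein, fell from 12.15, 12.12 and 11.97 to 9.79, 9.59 and 9.88 (-2.33 ± 0.11), and the small polymerase epsilon subunit POLE4 by 1.38 ± 0.10. The licensing factor CDT1 (1.47 ± 0.10), the catalytic subunit POLD1 (1.20 ± 0.12) and the reductase RRM2 (1.06 ± 0.14) rose. Of 59 mitosis genes 8 rose and 11 fell (median -0.05, and -0.40 with 0 and 12 under median scaling). CENPW (-1.93 ± 0.16), CKS1B (-1.48 ± 0.10), PTTG1 (-1.27 ± 0.11) and SPC25 (-1.19 ± 0.11) fell, whereas CDC20 (0.94 ± 0.09) and FOXM1 (0.93 ± 0.11) were called higher without median scaling only. Of 26 histone genes 2 rose and 8 fell (median -0.48, and -0.71 with 0 and 12 under median scaling), with H2AC20 (-2.09 ± 0.15) and H2AC19 (-1.49 ± 0.12) lowest, copies whose probes may read each other. Of 69 chromatin modifiers 23 rose and 0 fell (median 0.44, and 0.13 with 2 and 0 under median scaling). SMARCA4, an ATPase of the SWI/SNF remodeler, went from 10.81, 10.82 and 10.82 to 12.34, 12.23 and 12.05 (1.39 ± 0.11), and HDAC4 rose by 1.37 ± 0.11.

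Genes of RNA processing were likewise called in both directions. The shares were 22.6% and 20.2% of core splicing genes, against 15.9% and 11.1% of all genes. Of 84 core splicing genes 19 rose and 17 fell (median 0.02, and -0.35 with 1 and 22 under median scaling). Small Sm, LSm and SF3B proteins were among the falls. LSM3 went from 12.39, 12.23 and 12.32 to 9.58, 9.51 and 9.71 (-2.72 ± 0.10, adjusted p = 7.58e-06), and SNRPD2 (-2.40 ± 0.12), SNRPG (-2.16 ± 0.12) and SF3B6 (-1.64 ± 0.12) followed. The median span of the genes that fell was 10.65 kb on the genome, that of the genes that rose 21.49 kb and that of the uncalled members 17.04 kb. In the list of RNA polymerase II and Mediator 10 of 62 rose and 17 fell (median 0.12, and -0.11 with 3 and 18 under median scaling). MED16, a tail subunit of Mediator, went from 9.41, 9.30 and 9.29 to 11.32, 11.07 and 11.03 (1.81 ± 0.11), and MED12 (1.12 ± 0.11) and MED13L (1.03 ± 0.12) of the kinase module rose. MED31 (-1.96 ± 0.12), GTF2H5 (-1.86 ± 0.10), POLR2F (-1.57 ± 0.10) and MED7 (-1.43 ± 0.13) fell. Here the spans were 19.45 kb for the falls, 43.73 kb for the rises and 19.38 kb for the uncalled members. The order was not the same in every list, as integrin and adhesion genes had 25.91 kb for the rises and 37.27 kb for the falls. Of 42 proteasome genes 2 rose and 13 fell (median -0.30, and -0.81 with 0 and 22 under median scaling), led by the small lid protein SEM1 (-2.95 ± 0.14) and the assembly factor POMP (-1.62 ± 0.12).

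The host genes of small nucleolar RNAs had a higher share of falls than any other list outside the reference, apart from the 3 B-cell markers tested, of which 2 fell. Of 20 tested, 11 fell (55%) and 1 rose (median -0.81, and -1.18 with 12 lower and 0 higher under median scaling). SNHG9 went from 9.05, 9.00 and 8.80 to 5.50, 5.34 and 5.85, with detection on 2 of the 3 GO arrays (-3.39 ± 0.15, adjusted p = 9.25e-06). SNHG5 fell from 13.46, 13.34 and 13.39 to 10.76, 10.52 and 11.00 (-2.64 ± 0.13), and SNHG6 (-2.45 ± 0.10), ZFAS1 (-2.44 ± 0.10) and SNHG8 (-2.29 ± 0.12) fell alike. Such host transcripts are known to start, like those of ribosomal protein genes, with a terminal oligopyrimidine tract. Of 12 other long noncoding RNAs 5 fell and 1 rose (median -0.56, and -0.77 with 6 lower and 0 higher under median scaling), among them MIR155HG, the precursor of miR-155 (-1.74 ± 0.19). The small RNAs themselves were lower as well, with 48 of 114 snoRNAs falling and 3 rising (median -0.65) in the first scale. Over all genes 11.1% fell and 15.9% rose. Some of these calls, as for SNORD10, SNORD110 and SNORD15B, were lost when scaled to the detected probes, and these 3 were detected on no GO array. Outside the rule and named after their values were seen, SNORD3A (U3) changed by -2.18 ± 0.18, the spliceosomal RNA RNU1-1 by -1.37 ± 0.11 and the 5S gene RNA5S9 by -1.17 ± 0.14. The vault RNA VTRNA2-1 was detected on no GO array and at least 5.53-fold lower. By contrast, 2 probes of the 28S ribosomal RNA, RNA28SN5, were called higher (1.24 ± 0.13 and 0.77 ± 0.13) but not under median scaling. Labeling was primed from polyadenylated tails, so that values of RNAs without them are less certain.

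Translation factors rose more often than they fell in the first scale but under neither median scaling, and mitochondrial assembly factors fell more often. Of 53 initiation and elongation factors 13 rose and 5 fell (median 0.23, and -0.20 with 1 and 9 under median scaling). When scaled to the detected probes, 4 rose and 7 fell. The scaffold EIF4G1 rose by 1.31 ± 0.12, and EEF1B2 (-0.88 ± 0.11) and EIF3K (-0.79 ± 0.09) fell. Of 34 aminoacyl-tRNA synthetases 10 rose and 2 fell (median 0.41, and -0.07 with 3 and 2 under median scaling), with VARS1 (1.56 ± 0.15), CARS2 (1.25 ± 0.13) and FARSA (1.15 ± 0.17) higher under each scaling. Of 52 nucleolar and ribosome assembly genes 6 rose and 12 fell (median -0.06, and -0.43 with 3 and 15 under median scaling). The H/ACA protein NOP10 fell by 2.22 ± 0.11, whereas BOP1 (1.32 ± 0.10), NOC4L (1.11 ± 0.10) and RRP12 (1.09 ± 0.09) rose. Of 55 mitochondrial import and assembly factors 5 rose and 28 fell (median -0.68, and -0.93 with 0 and 31 under median scaling). PET100, which helps to assemble cytochrome c oxidase, went from 11.64, 11.55 and 11.31 to 7.88, 7.43 and 8.05 (-3.71 ± 0.17), and the copper chaperone COX17 fell by 3.00 ± 0.17. SLIRP, a mitochondrial RNA-binding protein outside these lists, went from 13.09, 13.04 and 13.06 to 9.68, 9.59 and 10.05 (-3.29 ± 0.13, adjusted p = 7.89e-06). No GO value of these genes reached a control value.

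**Figure D3:**
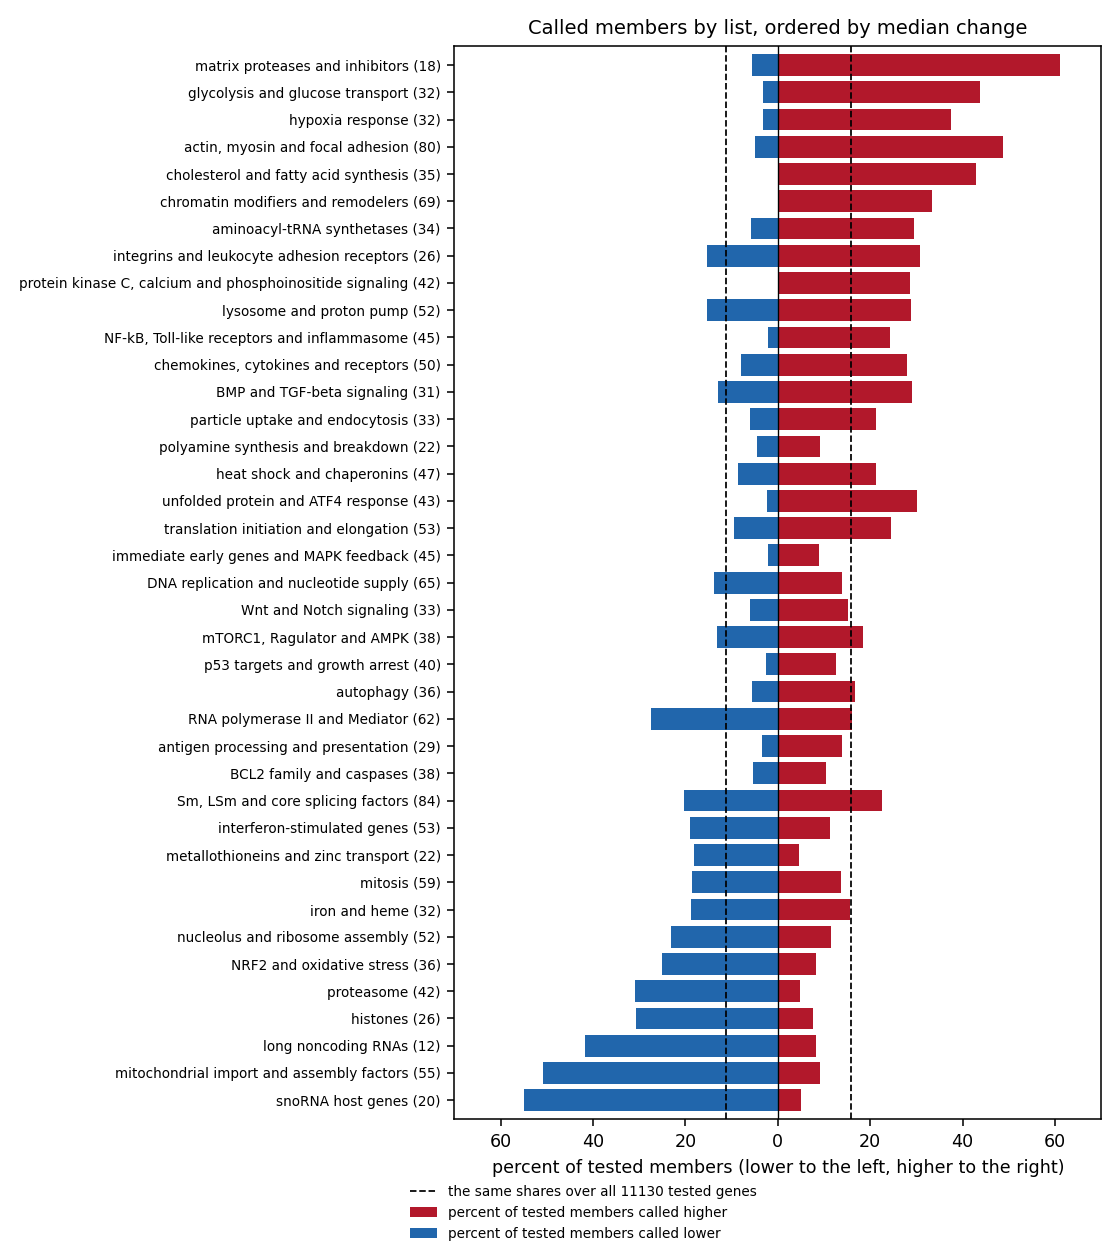
Percent of the tested members of each list that were called higher (red, to the right) or lower (blue, to the left) after GO, with the lists ordered by their median log2 change and the number tested in parentheses. Dashed lines give the shares over all 11130 genes (15.9% and 11.1%), which matrix proteases exceed for rises (11 of 18) and snoRNA host genes for falls (11 of 20).

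Across all genes, properties that the lists did not use moved with the response. By quintiles of genomic span, the share of genes that fell dropped from 21.1% among the shortest (0.055 to 8.142 kb) to 4.58% among the longest (81.46 to 1987 kb), and the median change went from -0.06 to 0.22. The share that rose was 12% in the shortest quintile and 17.3% in the longest. The median span was 12.99 kb for genes that fell, 29.5 kb for genes that rose and 29.72 kb for those not called. By the share of G and C in the promoter, falls went from 15.4% in the lowest quintile to 5.07% in the highest and rises from 12% to 21.6%. Spearman's correlation over genes, which are not independent replicates, was 0.168 for span (n = 11124) and 0.17 for promoter composition (n = 8970), and span gave 0.153 without the reference lists. These are weak relations and are given as a description. Control intensity gave -0.00777, although the share called rose with it in both directions, from 5.12% and 1.75% in the dimmest quintile to 26.3% and 22% in the brightest. Under median scaling the falls still went from 578 genes in the shortest quintile to 138 in the longest. By promoter composition, falls there went from 347 genes in the lowest quintile to 119 in the highest and rises from 50 to 87. Of the chromosomes, 19 had 27.4% of its 808 genes higher and 7.05% lower, and chromosome 22 had 22.6% and 5.73% of 279.

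**Figure D4:**
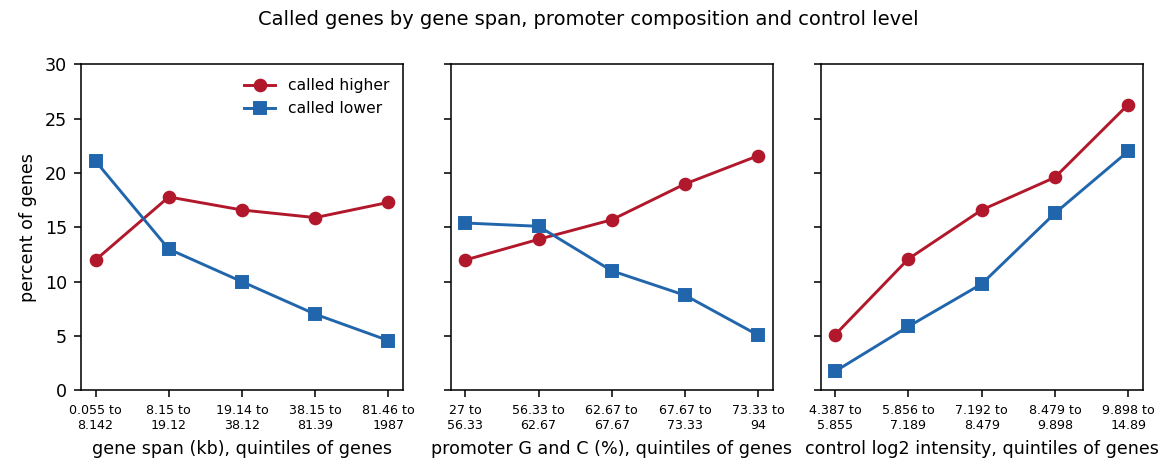
Percent of genes called higher (red circles) or lower (blue squares) after GO in quintiles of gene span (kb), of promoter G and C content (%) and of control log2 intensity. Falls go from 21.1% to 4.58% with span and from 15.4% to 5.07% with promoter composition, while rises and falls both increase with intensity.

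The GO response was next set against that to GONH2. GONH2 carries added amino groups, and per the study its sheets were also thicker and dispersed less evenly, so that these differences cannot be told apart. Tested directly, GO differed from GONH2 in 4689 transcripts (24.1%), with 2403 higher and 2286 lower after GO, and 608 and 2677 under median scaling. Over genes, 15.7% were higher and 10.1% lower after GO, 25.8% in all. GONH2 against control gave 158 calls (0.812%), 102 higher (0.524%) and 56 lower (0.288%), and 0.764% of genes (0.395% and 0.368%). The contrasts share arrays, so each gene's own values are set side by side. For ID1 the mean was 10.56 on control, 6.14 on GO and 9.76 on GONH2 arrays. GONH2 against control was itself called, and ID1 fell by 0.80 ± 0.09 there, while the GO minus GONH2 difference was -3.62 ± 0.13 (adjusted p = 6.2e-06). ID3 behaved in the same order, with a mean of 6.88 after GONH2. TGFB1I1 and MYO1G were the named genes that exceeded GONH2 most, by 2.16 ± 0.12 and 2.34 ± 0.13. MYO1G had a mean of 8.81 on control and 8.10 on GONH2 arrays, a step of -0.71 ± 0.12 that was not called.

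The interferon list contained genes that the 2 materials moved apart, with 3 of 53 genes higher and 15 lower after GO than after GONH2. IFI6 had means of 9.75, 7.74 and 10.43 on control, GO and GONH2 arrays, so that GONH2 was called higher than control (0.68 ± 0.10) and GO lower than GONH2 (-2.69 ± 0.14, adjusted p = 9.35e-06). ISG15 had 8.36, 7.36 and 8.74, and GO was lower than GONH2 by 1.38 ± 0.13. IRF7 was called higher after each material (0.93 ± 0.11 and 0.93 ± 0.12), and the difference of -0.0034 ± 0.12 was not called. CCL3 had means of 7.54, 8.18 and 9.10, with GO lower than GONH2 by 0.92 ± 0.11 (adjusted p = 0.000338). CCL4L1, whose probe may also read the near-identical CCL4, was detected on 1 control array, 0 GO arrays and all 3 GONH2 arrays. CCL5, with 11.38, 12.29 and 12.01, was higher than control after either material, and the difference of 0.28 ± 0.11 was not called (adjusted p = 0.0714). Called in the same direction after both materials were HSPA13 (1.12 ± 0.21 and 1.13 ± 0.19), whose GO call was lost under cyclic loess and in 4 of the 6 single-array omissions, and DUSP1 (-0.88 ± 0.10 and -0.67 ± 0.10).

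**Figure D5:**
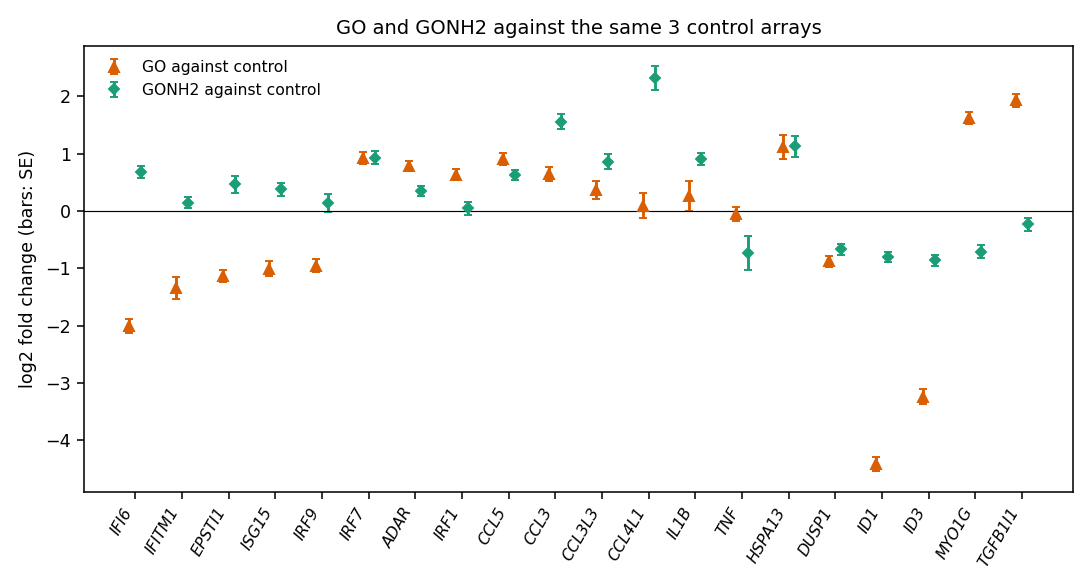
Log2 fold change against the same 3 control arrays after GO (orange triangles) and GONH2 (green diamonds) for genes named in the text, with bars for the SE. IFI6 lies at -2.01 after GO and 0.68 after GONH2 and CCL3 at 0.65 and 1.56, and the GO points of ID3, EPSTI1 and CCL4L1, detected on 0 GO arrays, are fitted values only.

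Lineage genes changed within the GO contrast too. RNASE2, the eosinophil-derived neurotoxin of granulocytes, went from 12.45, 12.29 and 12.37 to 10.14, 10.19 and 10.33 (-2.15 ± 0.10, adjusted p = 9.66e-06). AIF1 (-1.39 ± 0.11), MNDA (-1.06 ± 0.11) and TYROBP (-1.06 ± 0.09) also fell. ELANE rose by 0.73 ± 0.09, except under both median scalings, and CEBPA was not called (0.15 ± 0.11). Of 32 myeloid markers tested 9 rose and 9 fell (median 0.04, and -0.32 with 1 and 10 under median scaling). Of 5 natural killer cell markers 0 were called, and of 5 erythroid ones 1 fell. Of 16 T-cell markers 1 rose and 1 fell (median 0.06, and -0.04 with 0 and 2 under median scaling). The fall was that of CD3D, to 5.81, 4.88 and 5.55 with detection on 2 of the 3 GO arrays (-2.45 ± 0.25). The rise, CD4 (0.78 ± 0.14), was lost under median scaling, under cyclic loess and in 5 of the 6 single-array omissions.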

How the data were processed

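RNA of cells labelled Jurkat was hybridised to Illumina HumanHT-12 v4 arrays, 3 per group and each labelled a biological replicate, and their number limits the precision. The deposited table held an unnormalized intensity and a detection p-value for each of 47217 probes, which the authors extracted with GenomeStudio. A second deposited table, of the authors' normalized intensity, was used as an alternative only. Here R 4.3.3 and limma 3.58.1 were used. Background was corrected with neqc (normexp from the detection p-values, offset 16), followed by quantile normalization of all 18 arrays and log2. A probe was kept if its detection p was below 0.01 on 3 or more arrays, which left 19455. They were fitted on the arrays of the groups compared with limma's 2-sided moderated test, and called at p under 0.001 and an adjusted p under 0.05. Of all probes 30106 had 1 gene symbol, 8 several and 17103 none, and genes outside the platform annotation are unnamed. A gene was read by its tested probe with the highest mean. Where no array of a group detected a probe, "at least" gives the fold over that group's detection floor.

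Genes were named by rule: the largest called changes, the largest called members of each of 44 lists (2133 genes), the brightest uncalled member, markers, and the largest differences from GONH2. IFI27, IFIT1, IFI44, BST2, CANX, MT2A, MT1G, SLC39A6 and the small RNAs lie outside it. Members and lists were chosen with earlier results of these data known. Gene span stood in for coding length, as no protein table was used here. Promoter sequences are RefSeq's (GRCh38.p14). Alternatives were other backgrounds, scalings, filters, fits and thresholds, a replicate block, and the omission of single arrays.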

Additional observations from a re-analysis of the deposited data

How the results depend on the processing

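Under every alternative the transcripts called both there and in the reported fit had the same direction. For other thresholds, filters and fits of the same normalized arrays this was fixed in advance. Among other scalings it held for 2898 under the median of all probes, 4247 under that of the detected probes, 4363 under cyclic loess and 4711 with the authors' normalized values. How many were called, and the balance of directions, moved more. Scaling to the median of all probes left 585 transcripts higher against control and 608 higher against GONH2. The adjusted p alone called 9281 (5129 higher, 4152 lower) against control and 9033 (4981 and 4052) against GONH2, and a 2-fold minimum left 2016 (720 and 1296) and 2176 (843 and 1333). Omitting 1 array gave 3441 to 4089 calls against control (1646 to 1979 higher, 1795 to 2114 lower), with 1664 higher without control array 1 and 1646 without control array 3. Against GONH2 it gave 3290 to 3931 (1585 to 1907 and 1705 to 2024), with 1585 higher without GONH2 array 3. Counts with no background correction (6714), limma-trend (6590), a fit of all 18 arrays (6026) and no filter (5192) were larger. The cause of these differences was not tested, and each omission also left fewer arrays. Of 385 named probes, 278 kept their call or stayed uncalled under scaling to the median of all probes. There 100 lost their call, 5 gained a call and 2 turned in sign, MACROH2A1 to -0.19 and TOMM20 to -0.13.

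With replicate numbers as a block, 4010 transcripts were called against control (1962 and 2048), 3847 of them shared, and 3807 against GONH2 (1820 and 1987). Deviations of same-numbered control and GO arrays correlated at 0.0747, 0.0265 and 0.158, and those of other pairs at -0.137 to 0.0493. These small values do not settle whether the numbers pair the arrays, and the block was kept as an alternative only.

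Genes not detected in a group have only a bound, and probes near background understate change.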

Other observations

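Of 2989 genes with several tested probes, 313 had all of them called in 1 direction, 853 had some called in 1 direction, 1808 had none and 15 had probes called in opposite directions. The 5 widest gaps were in FMC1 (0.88 and -2.01), INIP (1.38 and -0.94), TRAPPC2L (0.76 and -1.34), SPTLC1 (1.45 and -0.59) and H3C13 (1.16 and -0.84), named after their values were seen. GALK2, a galactokinase homolog, PLEC, the cytolinker plectin, and MATR3, of the nuclear matrix, were among the others. Such genes have no single direction here.

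Probes without a single gene name fell more often than named ones, with 16.2% of 4554 lower and 9.64% higher, against 11.1% and 13.8% of 14901. Of 31 microRNA genes tested 1 rose and 4 fell, of 12 small nuclear RNAs 0 and 5, and of 191 long noncoding RNAs 19 and 34. Whether these differ from coding genes was not tested.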
